A study of Danio rerio with 18 samples.

Results

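A set of 10 inflammatory and acute phase genes was followed through all 6 groups of the zebrafish series: il1b, tnfa, tnfb, cxcl8a, saa, irg1l, mmp9, mmp13a, socs3a and nfkbiaa. Members were the genes of the 4 count tables that carry one of these symbols, with il1b taken by its identifier ENSDARG00000098700. The symbols matched 9 of the 10 among 32520 genes. They were tnfa (ENSDARG00000009511), tnfb (ENSDARG00000013598), cxcl8a (ENSDARG00000104795), saa (ENSDARG00000045999, written SAA2), irg1l (ENSDARG00000062788), mmp9 (ENSDARG00000042816, written MMP9), mmp13a (ENSDARG00000012395) and nfkbiaa (ENSDARG00000005481) beside il1b. For socs3a, 2 identifiers (ENSDARG00000025428 and ENSDARG00000026611) share the symbol SOCS3, and which of them is socs3a is not given in the sources used here. Both are therefore described as a pair and are left out of the member counts.

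Interleukin 1 beta (il1b) and the tumour necrosis factors (tnfa and tnfb) are secreted cytokines that neutrophils, macrophages and epithelial cells make on sensing microbes or damage, and they act through NF-kappaB and related factors. Those factors switch on chemokines such as cxcl8a, which draws neutrophils, together with matrix proteases and the inhibitors nfkbiaa and socs3a, which damp the same signal. Serum amyloid A (saa) is an acute phase protein made in liver and in the intestinal epithelium, and in zebrafish larvae the gut microbiota is known to raise it. Irg1l is a relative of the itaconate-making enzyme gene of macrophages and is known in zebrafish as a gene induced by infection.

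The 18 libraries were bulk RNA from dissected tissues of AB strain zebrafish, 3 libraries a group. Intestines were taken 5 days and kidneys 7 days after fertilization, the larval kidney being a blood-forming organ, so tissue and age differ together. The groups of each tissue were germ-free wild type (GF), chd8-/- and conventionally raised wild type (CV). GF eggs were kept in antibiotic medium, washed in polyvinylpyrrolidone and sodium hypochlorite and then raised in sterile medium, and CV eggs came from the same spawnings and did not have these steps. The chd8-/- fish are homozygous mutants of chd8, a gene for a CHD family chromatin remodeller. Their parents spawned in circulating system water and the CV and GF parents in autoclaved system water, so genotype, rearing and any difference in collection cannot be told apart. Tissues were pooled from 30 (GF and CV intestine), 40 (chd8-/- intestine), 50 (GF and CV kidney) or about 70 fish (chd8-/- kidney), and it is not said whether this is per library. Separate clutches are not named, so the p-values cover no more than the spread seen between these libraries, part of which may be technical. Each comparison with GF and each with chd8-/- in a tissue uses the same CV libraries.

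Total counts ran from 26864797 to 36624972 in intestine and from 27291597 to 31268453 in kidney libraries. The gut markers FABP2 and cdx1b averaged 16.0 and 3.2 CPM (read counts scaled to library size, with TMM factors over the 18 libraries) in CV kidney, against 1790 and 163 CPM in CV intestine. Both belong to a list of 12 enterocyte markers that differed less. It summed to 793, 1460 and 1620 CPM in CV kidney, against 22500, 28700 and 25400 CPM in CV intestine. The podocyte marker NPHS1 averaged 8.87 CPM in CV kidney, against 1.36 CPM in CV intestine. The whole list of 13 kidney tubule and podocyte markers, in contrast, summed to 777, 903 and 1010 CPM in CV kidney, against 1650, 2460 and 1770 CPM in CV intestine. That list holds PAX5, matched as a synonym of pax2a, and whether its genes are confined to the kidney was not tested. CHD8 was present in the mutants, at 30.2, 34.7 and 38.9 CPM in chd8-/- kidney against 45.8, 51.2 and 51.7 CPM in CV kidney. The library labelled GF kidney replicate 2 held 33.4 CPM of CHD8, inside the chd8-/- range, while the other GF kidneys held 53.8 and 54.0 CPM. Whether its label is right was not tested. CV kidney replicate 1 also stood apart, with 1970 CPM summed over 6 skin epithelium markers against 16700 and 13400 CPM in the other CV kidneys, and 639 CPM over 20 macrophage marker genes against 164 and 160 CPM. For many of the member values the value without 1 of these libraries is given too. GF intestine replicate 3 stood apart as well, with 521 CPM over 11 neuron and retina markers against 24.3 and 22.1 CPM in the other GF intestines. CV intestine libraries carry different numbers in the 2 intestine tables, and the numbers of the germ-free table are used below.

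None of the 8 tested members passed edgeR's test in any of the 7 comparisons. Libraries of the same group often differed by more than the group means did. Tnfa had no test, and saa had none in GF intestine. The SOCS3 pair is not in that count, and ENSDARG00000025428 of the pair passed between CV kidney and CV intestine (edgeR adjusted p = 0.0349). The threshold was an adjusted p of 0.05 in edgeR's quasi-likelihood test, with Benjamini-Hochberg adjustment over all tested genes, and a gene past it is described as called. Of all tested genes 0% were called in GF intestine, GF kidney, chd8-/- kidney and for the difference of the GF response between tissues. The share was 0.153% for the tissue difference of the chd8-/- response, 9.17% in chd8-/- intestine and 37.2% between CV tissues. In the kidney, il1b differed 36.5-fold between the lowest and highest chd8-/- library and irg1l 126-fold between CV libraries.

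**Figure D1:**
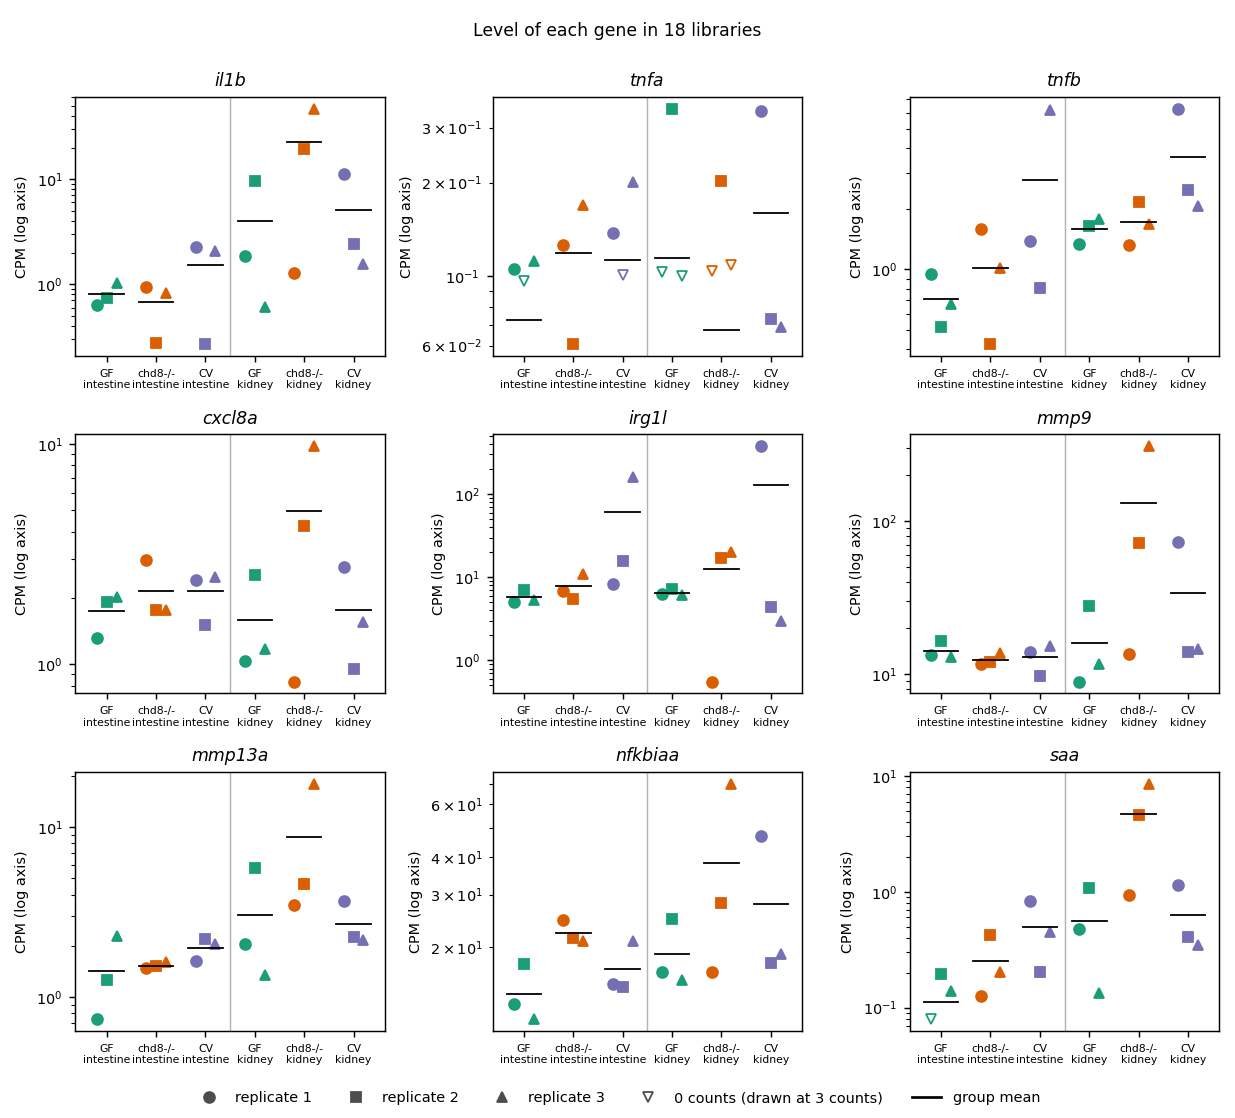
Level of each of the 9 matched genes (CPM, log axis) in GF, chd8-/- and CV intestine and in GF, chd8-/- and CV kidney, 1 symbol per replicate and a black line at the group mean of 3 libraries; libraries with 0 counts are drawn as open triangles at the level of 3 counts. Within chd8-/- kidney 8 of the 9 were lowest in replicate 1 and 7 were highest in replicate 3, while CV replicate 1 was the highest CV kidney library for all 9.

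Il1b, the cytokine that starts many of these responses, was scarce in the intestine. It stood at 0.634, 0.743 and 1.03 CPM in GF, at 0.947, 0.273 and 0.816 CPM in chd8-/- and at 2.24, 0.269 and 2.09 CPM in CV intestine. One CV library was thus the lowest of the 9 and the other two were the highest, so the groups overlapped. In the kidney il1b stood at 1.85, 9.55 and 0.601 CPM in GF, at 1.28, 19.5 and 46.9 CPM in chd8-/- and at 11.3, 2.42 and 1.55 CPM in CV. These levels correspond to 18 to 1290 counts, so the spread lies far outside counting error. The log2 fold change was −0.91 (SE 0.67, edgeR adjusted p = 0.843) in GF intestine and −1.20 (SE 0.69, 0.317) in chd8-/- intestine. It was −0.40 (SE 1.03, edgeR adjusted p = 0.919) in GF kidney and 2.12 (SE 1.25, 0.67) in chd8-/- kidney. The GF kidney value turned to 0.98 without CV kidney replicate 1 and became −2.06 without the library labelled GF kidney replicate 2. In chd8-/- kidney it was 3.50 without CV kidney replicate 1 and 1.01 without chd8-/- kidney replicate 3. Without CV intestine replicate 2, the lowest of its group, il1b passed in chd8-/- intestine (−1.69, edgeR adjusted p = 0.038), as did 3069 of 21388 genes in all. That choice removes the lowest CV library, so it pushes the value down and is no support for it.

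Tnfa, the better known of the paired tumour necrosis factor genes, was at the limit of detection. No library held more than 10 counts, and 6 of the 18 held 0, where 3 counts would correspond to 0.0969 to 0.109 CPM. The highest levels were 0.345 CPM in the library labelled GF kidney replicate 2 and 0.338 CPM in CV kidney replicate 1. Tnfa failed the expression filter of every comparison and has no test.

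Tnfb, its paralogue, was measurable throughout. Its library order differed from that of il1b except within chd8-/- intestine and CV kidney, where the order was the same. Its level was 0.951, 0.517 and 0.671 CPM in GF, 1.58, 0.425 and 1.02 CPM in chd8-/- and 1.38, 0.807 and 6.16 CPM in CV intestine. In the kidney it was 1.34, 1.65 and 1.77 CPM in GF, 1.32, 2.15 and 1.67 CPM in chd8-/- and 6.28, 2.49 and 2.06 CPM in CV. All 3 GF kidney libraries lay below all 3 CV kidney libraries, and 1 CV library of each tissue stood well above the rest. The log2 fold change was −1.95 (SE 0.72, edgeR adjusted p = 0.803) in GF intestine, −1.20 (SE 0.48, 0.561) in GF kidney, −1.50 (SE 0.74, 0.25) in chd8-/- intestine and −1.10 (SE 0.49, 0.563) in chd8-/- kidney. Without the high CV library these values were −0.61, −0.52, −0.14 and −0.43. Both mutant and germ-free values are taken against the same CV libraries, and each of these log2 values shrank by more than 1.5 times when 1 CV library was left out.

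Cxcl8a, which encodes a neutrophil chemoattractant, differed little in the intestine, with 1.32, 1.91 and 2.01 CPM in GF, 2.97, 1.76 and 1.77 CPM in chd8-/- and 2.41, 1.51 and 2.49 CPM in CV. In the kidney it stood at 1.03, 2.53 and 1.17 CPM in GF, at 0.833, 4.24 and 9.77 CPM in chd8-/- and at 2.77, 0.953 and 1.55 CPM in CV. The chd8-/- kidneys held both the lowest and the highest library of that tissue. The log2 fold change was −0.28 (SE 0.36, edgeR adjusted p = 0.92) in GF intestine, −0.19 (SE 0.54, 0.927) in GF kidney, 0.00 (SE 0.33, 0.999) in chd8-/- intestine and 1.47 (SE 0.79, 0.63) in chd8-/- kidney. The chd8-/- kidney value was 0.50 without chd8-/- kidney replicate 3. The kidney values without CV kidney replicate 1 were 0.31 in GF and 1.97 in chd8-/-, and the GF value was −0.67 without the library labelled GF kidney replicate 2.

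Irg1l had the largest range of the members. In the intestine it stood at 5.02, 6.95 and 5.31 CPM in GF, at 6.88, 5.46 and 10.9 CPM in chd8-/- and at 8.30, 15.5 and 161 CPM in CV. All GF libraries were below all CV libraries, and CV replicate 3 was far above every other intestine library. In the kidney irg1l stood at 6.26, 7.13 and 6.08 CPM in GF, at 0.556, 17.1 and 20.1 CPM in chd8-/- and at 376, 4.40 and 2.99 CPM in CV. CV kidney replicate 1 held 11143 counts of irg1l and the other CV kidneys 120 and 87. The log2 fold change was −3.41 (SE 1.28, edgeR adjusted p = 0.803) in GF intestine, −4.33 (SE 1.75, 0.565) in GF kidney, −3.01 (SE 1.37, 0.273) in chd8-/- intestine and −3.37 (SE 2.03, 0.682) in chd8-/- kidney. These sizes rested on 1 CV library in each tissue. Without CV intestine replicate 3 the values were −1.06 in GF and −0.64 in chd8-/- intestine, and without CV kidney replicate 1 they turned to 0.81 in GF and 1.76 in chd8-/- kidney.

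Of the matrix metalloprotease genes, mmp9 encodes a gelatinase of neutrophils and macrophages and mmp13a a collagenase. Mmp9 was steady in the intestine, at 13.2, 16.3 and 12.9 CPM in GF, 11.5, 11.9 and 13.6 CPM in chd8-/- and 13.8, 9.72 and 15.1 CPM in CV. In the kidney it stood at 8.87, 27.6 and 11.5 CPM in GF, at 13.5, 72.1 and 308 CPM in chd8-/- and at 72.5, 13.8 and 14.6 CPM in CV. One chd8-/- library lay just below all CV libraries and another stood above all of them. The log2 fold change was 0.14 (SE 0.21, edgeR adjusted p = 0.931) in GF intestine, −1.11 (SE 0.72, 0.663) in GF kidney, −0.08 (SE 0.19, 0.835) in chd8-/- intestine and 1.94 (SE 1.18, 0.683) in chd8-/- kidney. The last value became 3.2 without CV kidney replicate 1 and 0.32 without chd8-/- kidney replicate 3. The GF kidney value was 0.15 without CV kidney replicate 1.

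Mmp13a stood at 0.740, 1.26 and 2.29 CPM in GF, at 1.48, 1.52 and 1.6 CPM in chd8-/- and at 1.62, 2.19 and 2.04 CPM in CV intestine. The chd8-/- libraries lay just below the CV libraries, and the log2 fold change there was −0.40 (SE 0.30, edgeR adjusted p = 0.454), while in GF intestine it was −0.43 (SE 0.46, 0.896). In the kidney it stood at 2.05, 5.71 and 1.34 CPM in GF, at 3.47, 4.61 and 17.9 CPM in chd8-/- and at 3.68, 2.24 and 2.17 CPM in CV. Its log2 fold change was 0.14 (SE 0.54, edgeR adjusted p = 0.947) in GF kidney, and −0.66 without the library labelled GF kidney replicate 2. In chd8-/- kidney the value of 1.66 (SE 0.63) had an unadjusted p of 0.0288 and an adjusted p of 0.504 in edgeR, and it was 0.55 without chd8-/- kidney replicate 3.

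Nfkbiaa encodes an inhibitor that holds NF-kappaB in the cytoplasm and is itself induced by it. It stood at 12.9, 17.6 and 11.5 CPM in GF, at 24.7, 21.4 and 21.0 CPM in chd8-/- and at 15.1, 14.7 and 21.0 CPM in CV intestine. In the kidney it stood at 16.5, 24.8 and 15.6 CPM in GF, at 16.5, 28.2 and 70.3 CPM in chd8-/- and at 47.2, 17.7 and 19 CPM in CV. The groups overlapped in both tissues. The log2 fold change was −0.27 (SE 0.22, edgeR adjusted p = 0.861) in GF intestine, −0.58 (SE 0.40, 0.678) in GF kidney, 0.38 (SE 0.17, 0.204) in chd8-/- intestine and 0.43 (SE 0.59, 0.874) in chd8-/- kidney. Leaving out CV kidney replicate 1 gave kidney values of 0.04 in GF and 1.05 in chd8-/-, and without chd8-/- kidney replicate 3 the chd8-/- value was −0.36.

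The SOCS3 genes encode inhibitors of cytokine receptors that signal through STAT3. ENSDARG00000025428 stood at 38.2, 59.7 and 56.6 CPM in GF, at 45.3, 114 and 274 CPM in chd8-/- and at 206, 97.1 and 201 CPM in CV kidney. All GF kidneys were below all CV kidneys, and the log2 fold change of −1.72 (SE 0.32) did not pass in edgeR (adjusted p = 0.411) and passed in DESeq2 (−1.73, adjusted p = 0.000257). Without CV kidney replicate 1 it was −1.54, and without the library labelled GF kidney replicate 2 it was −1.82. In chd8-/- kidney it was −0.24 (SE 0.61, edgeR adjusted p = 0.938). ENSDARG00000026611 stood at 20.8, 32.2 and 26.6 CPM in GF, at 24.5, 44.9 and 61.1 CPM in chd8-/- and at 108, 28.9 and 26.2 CPM in CV kidney. Its log2 fold change was −1.06 (SE 0.54, edgeR adjusted p = 0.599) in GF kidney and −0.06 without CV kidney replicate 1, and −0.35 (SE 0.60, 0.902) in chd8-/- kidney. In intestine the pair gave −0.51 and −0.13 (edgeR adjusted p = 0.843 and 0.942) in GF and 0.46 and 0.23 (0.384 and 0.543) in chd8-/-.

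Saa, the acute phase member, was near its floor in the intestine. It stood at 0, 0.194 and 0.140 CPM in GF (0, 6 and 5 counts), at 0.126, 0.425 and 0.204 CPM in chd8-/- and at 0.827, 0.202 and 0.453 CPM in CV. In CPM each GF library was below the lowest CV library. The CV libraries held 24, 6 and 18 counts, so GF and CV replicate 2 both had 6. Groups without overlap were found for 2331 of the 20954 genes tested between GF and CV intestine. Saa failed the expression filter of that comparison and has no test there. In chd8-/- intestine its log2 fold change was −0.96 (SE 0.69, edgeR adjusted p = 0.431). In the kidney saa stood at 0.479, 1.07 and 0.134 CPM in GF, at 0.938, 4.61 and 8.54 CPM in chd8-/- and at 1.15, 0.403 and 0.344 CPM in CV. Replicates 2 and 3 of chd8-/- were above every other kidney library and replicate 1 was inside the CV range. The chd8-/- kidney value of 2.86 (SE 0.83, unadjusted p = 0.00815) did not pass in edgeR (adjusted p = 0.443) and passed in DESeq2 (2.87, adjusted p = 0.0231). Without chd8-/- kidney replicate 3 it was 2.10, and without CV kidney replicate 1 it was 3.63. In GF kidney it was −0.21 (SE 0.82, edgeR adjusted p = 0.947), −1.04 without the library labelled GF kidney replicate 2 and 0.56 without CV kidney replicate 1.

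**Figure D2:**
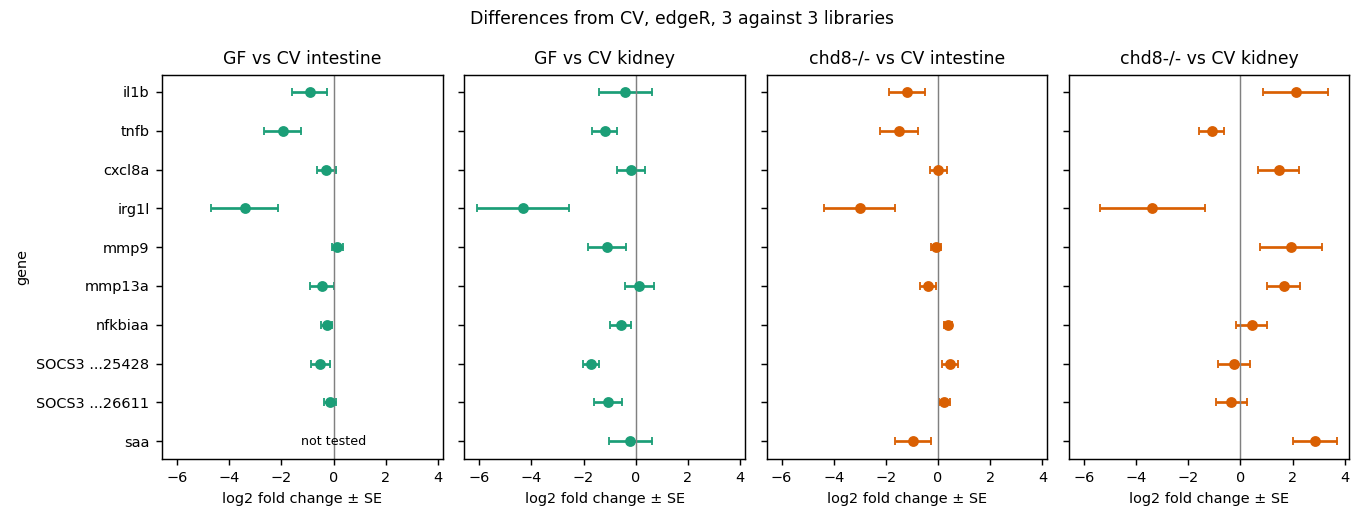
Log2 fold change against CV (horizontal axis, with its standard error) of each tested member and of both SOCS3 identifiers, shown by their last 5 digits, in GF and chd8-/- intestine and kidney, 3 against 3 libraries each. In GF kidney 7 of 8 members were below 0 and in chd8-/- kidney 6 of 8 were above 0, with none past the threshold; without CV kidney replicate 1, 7 of 8 were above 0 in both.

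Counted by comparison, edgeR called 0 of 7 tested members in GF intestine, where it called 0 of 20954 genes (0%), 1249 of them with an unadjusted p under 0.05. It called 0 of 8 members in GF kidney, where it called 0 of 21120 genes (0%) and 1856 had an unadjusted p under 0.05. An unadjusted p under 0.05 was found for tnfb and irg1l in both. DESeq2 called 35 and 176 genes in these comparisons and limma-voom 0 and 0, with none of the members among them. DESeq2 gave irg1l no adjusted p in the comparisons that use kidney libraries. Members whose GF and CV libraries did not overlap were 1 of 7 in intestine (irg1l) and 1 of 8 in kidney (tnfb), against 2331 of the 20954 tested genes in intestine and 15.3% of those in kidney. The median member log2 fold change was −0.43 in GF intestine and −0.49 in GF kidney, against 0.01 and 0.01 over all tested genes. The kidney median moved with single libraries. Without CV kidney replicate 1 it was 0.38, with 7 of 8 members above 0. Without the library labelled GF kidney replicate 2 it was −1.13, with 0 of 8 above 0. The intestine median was −0.97 without GF intestine replicate 3 and −0.21 without GF intestine replicate 1. At this sample size a p above the threshold does not show that levels were alike, as the standard errors of irg1l and il1b above make plain.

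In chd8-/- intestine edgeR called 0 of 8 members, while it called 1903 of 20758 genes (9.17%). DESeq2 called 2748 genes and limma-voom 1832, with 0 members among them, and no member had an unadjusted p under 0.05 in edgeR. Only mmp13a had groups that did not overlap (1 of 8, against 30.3% of all genes). In chd8-/- kidney edgeR called 0 of 8 members and 0 of 21060 genes (0%), with an unadjusted p under 0.05 for saa and mmp13a and for 1895 genes. DESeq2 called 1 member, saa, among 245 genes, and limma-voom 0 among 0. No member had kidney groups that did not overlap, against 15.8% of all genes. The median member log2 fold change was −0.68 in chd8-/- intestine and 1.57 in chd8-/- kidney, against −0.01 and −0.01 over all genes. Without chd8-/- kidney replicate 3 the kidney median was 0.41, with 5 of 8 members above 0, and without CV kidney replicate 1 it was 1.96, with 7 of 8 above 0. Without CV intestine replicate 3 the intestine median was −0.26. Leaving out CV kidney replicate 1 and chd8-/- kidney replicate 1 together gave 4 called members among 2178 called genes (il1b 4.06, cxcl8a 2.47, saa 4.12 and irg1l 2.33). That choice removes the highest CV and the lowest chd8-/- library of these 4 genes, so it fixes the direction and is no support for it.

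**Figure D3:**
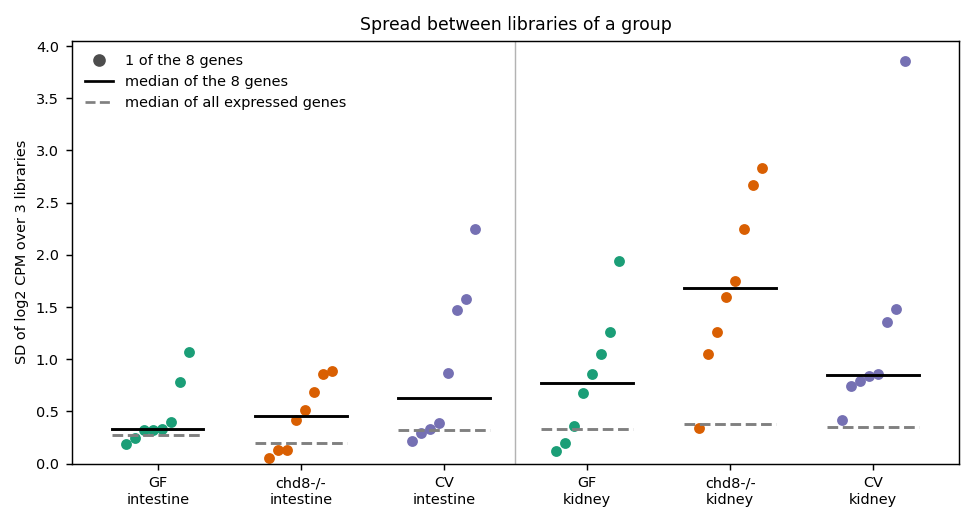
Standard deviation of log2 CPM (prior count 2) over the 3 libraries of each group (vertical axis) for the 8 members other than tnfa, with their median as a solid line and the median of 22801 expressed genes as a dashed line. The member median is 1.68 in chd8-/- kidney, against 0.38 for all genes, and 0.33 against 0.27 in GF intestine.

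The spread between libraries of 1 group set the size of these errors. Over the 8 members above the filter, the median standard deviation of log2 CPM was 0.33 in GF, 0.46 in chd8-/- and 0.63 in CV intestine, against 0.27, 0.20 and 0.32 over 22801 expressed genes. In the kidney it was 0.77 in GF, 1.68 in chd8-/- and 0.85 in CV, against 0.33, 0.38 and 0.35 over all expressed genes. All 8 members lay above the all-gene median in CV kidney and 7 of 8 in chd8-/- kidney, the exception being tnfb at 0.34. The all-gene medians were not matched for expression level. Counting error widens the spread of low genes such as saa (14, 28 and 4 counts in GF kidney), and its part was not tested. CV kidney replicate 1 was the highest of its group for 9 of 9 members. The library labelled GF kidney replicate 2 was highest for 8, and chd8-/- kidney replicate 3 for 7 while replicate 1 was lowest for 8.

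The high libraries shared some members and differed in others. Taking genes with at least 20 counts at 4 times or more the median of the 9 libraries of their tissue, chd8-/- kidney replicate 3 had 5 of 8 members above that line (il1b, cxcl8a, saa, mmp9 and mmp13a), against 0.903% of all expressed genes. Replicate 2 of that group had il1b, saa and mmp9 above it, against 0.811% of all genes. CV kidney replicate 1 had il1b, irg1l and mmp9, against 2.48% of all genes. CV intestine replicate 3 had tnfb and irg1l, against 0.728%, and CV intestine replicate 1 had saa, against 0.132%. Il1b and mmp9 were thus above the line in 3 kidney libraries of 2 groups, and irg1l in 1 CV library of each tissue. No library of GF intestine, chd8-/- intestine or GF kidney had a member above the line. This line was drawn after the values had been seen.

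Other genes of these pathways were counted against the same line. Of 151 expressed pathway genes (other cytokines, chemokines, receptors, signalling genes, inhibitors, effectors and acute phase proteins), 13 (8.61%) were above the line in chd8-/- kidney replicate 3. They included hp, the haptoglobin gene (8.50 CPM, 38.7 times the tissue median), csf3b, a granulocyte colony-stimulating factor (19.3 CPM, 35 times), and il11a, a cytokine of the interleukin 6 family (7.45 CPM, 26.8 times). In CV kidney replicate 1, 17 pathway genes (11.3%) were above the line. There ccl20a.3, a chemokine gene, reached 16.6 CPM (40.1 times the tissue median), NOS2 ENSDARG00000026925, an inducible nitric oxide synthase, 120 CPM (17.0 times), and ACOD1, the itaconate-making enzyme, 39.4 CPM (12.2 times). CV intestine replicate 3 had 8 such genes (5.30%), among them ccl20a.3 at 6.49 CPM (15.3 times) and il22, an epithelial barrier cytokine, at 2.77 CPM. Chd8-/- kidney replicate 2 had 5 pathway genes above the line (3.31%), the library labelled GF kidney replicate 2 had 4 (2.65%) and chd8-/- kidney replicate 1 had 2 (1.32%), the last 2 of these libraries with no member above it. CV intestine replicates 1 and 2 had 1 each (0.662%). The sets overlapped: hp stood at 4.43 CPM in CV kidney replicate 1 (20.1 times), and ccl20a.3 at 6.07 CPM (14.7 times) and ACOD1 at 16.6 CPM (5.17 times) in chd8-/- kidney replicate 3. The gene csf3b, in contrast, stood at 0.405 CPM in CV kidney replicate 1. These examples were picked after their values were seen.

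**Figure D4:**
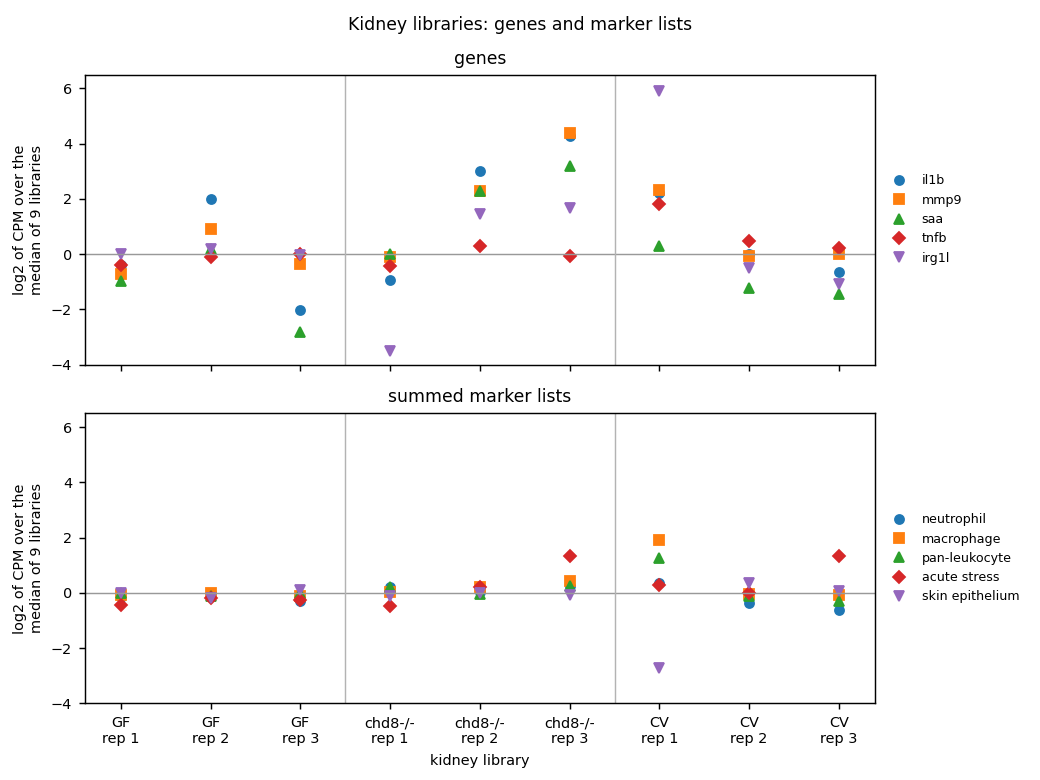
Log2 of the CPM in each of the 9 kidney libraries over the median of those 9 (vertical axis), for 5 members (top) and for the summed CPM of 5 marker lists (bottom), with GF, chd8-/- and CV libraries from left to right. Il1b and mmp9 are above 4 on this scale in chd8-/- replicate 3, where the leukocyte lists lie below 1, while in CV replicate 1 irg1l is near 6, the macrophage list near 2 and the skin list below −2.

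Markers of immune cells were high together with the members in CV kidney replicate 1 and differed less among the chd8-/- kidneys. In bulk RNA a change in the number of cells of a type and a change in the RNA of each cell cannot be told apart. Across chd8-/- kidneys, where il1b stood at 1.28, 19.5 and 46.9 CPM, the 8 neutrophil markers summed to 226, 200 and 229 CPM and the 20 macrophage marker genes to 176, 196 and 231 CPM. The 6 pan-leukocyte markers there summed to 179, 150 and 184 CPM. The 6 acute stress genes (heat shock and immediate early genes) followed the order of il1b in these 3 libraries, at 172, 273 and 603 CPM. In CV kidney they stood at 285, 236 and 594 CPM, with the highest value in replicate 3, where il1b was lowest. In CV kidney the macrophage list summed to 639, 164 and 160 CPM, the neutrophil list to 249, 150 and 126 CPM, the pan-leukocyte list to 377, 146 and 127 CPM and the skin list to 1970, 16700 and 13400 CPM. Over the 3 kidney groups the macrophage list covered 156 to 170 CPM in GF, 176 to 231 CPM in chd8-/- and 160 to 639 CPM in CV, with 3, 1 and 1 of its genes at 0 in every library of the group. Those at 0 were copies of the repeated MPEG1 and MFAP4 symbols. In intestine its range was 169 to 193 CPM in GF, 188 to 229 CPM in chd8-/- and 180 to 260 CPM in CV. MPEG1 ENSDARG00000043093, a macrophage perforin gene picked from that list, ranged from 31.8 to 293 CPM in CV kidney, highest in replicate 1. In CV intestine it ranged from 11.2 to 70.5 CPM, highest in replicate 3. These are the libraries where irg1l and tnfb were high. The whole list covered a narrower range in CV intestine, at 212, 180 and 260 CPM, so this gene does not stand for it. Red blood cell markers summed to 802, 228 and 542 CPM in GF, 747, 237 and 319 CPM in chd8-/- and 440, 274 and 236 CPM in CV kidney, highest in replicate 1 of each group. Enterocyte markers summed to 1200, 2410 and 1090 CPM in GF, 2930, 1560 and 1530 CPM in chd8-/- and 793, 1460 and 1620 CPM in CV kidney. They were highest in the library labelled GF kidney replicate 2 within GF, and in replicate 1, the library with the lowest il1b, within chd8-/-. The part of these cell types and of stress in the members' levels was not tested. GF intestine replicate 3 held 521 CPM over 11 neuron and retina markers, against 24.3 and 22.1 CPM in the other GF intestines, and had no member above the 4-fold line. Of all expressed genes 4.42% were above that line in it, the largest share of the 18 libraries. Without this library the GF intestine log2 fold change was −0.97 for mmp13a, −1.15 for il1b and −0.94 for SOCS3 ENSDARG00000025428. For tnfb and irg1l it was −1.92 and −3.37, and for nfkbiaa −0.15.

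Set side by side over all 6 groups, every member had its highest group mean in the kidney, tnfa at the limit of detection. For il1b the order of means was chd8-/- kidney, CV kidney, GF kidney, CV intestine, GF intestine and chd8-/- intestine, at 22.5, 5.09, 4.00, 1.53, 0.804 and 0.679 CPM. Chd8-/- kidney came first for il1b, cxcl8a, saa, mmp9, mmp13a and nfkbiaa, and CV kidney for tnfa, tnfb and irg1l. The first place of tnfa, tnfb and irg1l rested on CV kidney replicate 1, at 0.338, 6.28 and 376 CPM. The other CV kidneys held at most 0.0733, 2.49 and 4.40 CPM of these genes. The first place of nfkbiaa rested on chd8-/- kidney replicate 3, at 70.3 CPM. The other chd8-/- kidneys held 16.5 and 28.2 CPM of nfkbiaa, against a mean of 28 CPM in CV kidney. Of 45 pairs of neighbouring groups, 1 had ranges that did not overlap (mmp13a in chd8-/- intestine, lower than in CV intestine), and with library size scaling 0 of 45 had. All other neighbours in the 9 orders overlapped, so the order of means is not an order of groups. The matching shares over all genes were not computed.

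Between tissues of CV fish, edgeR called 0 of 8 members, while it called 7870 of 21130 genes (37.2%). No member had an unadjusted p under 0.05 in that comparison, and none had kidney and intestine libraries that did not overlap, against 50.9% of all genes. DESeq2 called il1b (1.79, adjusted p = 0.0451) and mmp9 (1.44, adjusted p = 0.0206) among 8668 genes. The log2 difference, kidney over intestine, was 1.75 for il1b, 0.37 for tnfb, −0.27 for cxcl8a, 1.07 for irg1l, 1.41 for mmp9, 0.48 for mmp13a, 0.74 for nfkbiaa and 0.38 for saa, with a median of 0.61 against 0.00 over all genes. Without CV kidney replicate 1 these values were 0.39 for il1b, −0.28 for tnfb, −0.74 for cxcl8a, −4.04 for irg1l, 0.17 for mmp9, 0.21 for mmp13a, 0.15 for nfkbiaa and −0.37 for saa. The median was then −0.07, with 4 of 8 members above 0. SOCS3 ENSDARG00000025428 passed, at 168 ± 61.5 CPM in CV kidney and 81.2 ± 25.1 CPM in CV intestine (SD, n = 3 each), and the log2 difference was 1.06 (SE 0.34, edgeR adjusted p = 0.0349). The groups overlapped, and the gene did not pass when CV kidney replicate 1 (0.91, 0.0573), CV kidney replicate 3 (0.93, 0.0971), CV intestine replicate 1 (0.83, 0.13) or CV intestine replicate 2 (1.08, 0.0906) was left out.

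Whether a response differed between tissues was tested as an interaction, the kidney log2 fold change minus the intestine one. For the GF response edgeR called 0 of 8 members and 0 of 22368 genes (0%), with an unadjusted p under 0.05 for 0 members and 1291 genes. DESeq2 called 24 genes and no member. The member values were 0.60 for il1b, 0.81 for tnfb, 0.16 for cxcl8a, −0.85 for irg1l, −1.19 for mmp9, 0.65 for mmp13a, −0.26 for nfkbiaa and 1.98 for saa, with a median of 0.38 against 0.01 over all genes. That median ranged from −0.46 without the library labelled GF kidney replicate 2 to 1.17 without CV kidney replicate 1. For the chd8-/- response edgeR called 0 of 8 members and 34 of 22203 genes (0.153%). Saa had the largest value there, 3.83 (SE 1.12, unadjusted p = 0.00429, edgeR adjusted p = 0.254), and it passed in DESeq2 (3.85, adjusted p = 0.0383). Mmp13a followed among those with an unadjusted p under 0.05, at 2.07 (SE 0.72, unadjusted p = 0.0121, edgeR adjusted p = 0.348). The other values were 3.33 for il1b, 0.41 for tnfb, 1.48 for cxcl8a, −0.35 for irg1l, 2.04 for mmp9 and 0.06 for nfkbiaa. The median was 1.76, against 0.04 over all genes. With single libraries left out the values ranged from 3.08 to 4.59 for saa, 2.21 to 4.70 for il1b, 0.97 to 2.45 for mmp13a, 0.42 to 3.28 for mmp9 and 0.52 to 1.98 for cxcl8a. The median was 0.47 without chd8-/- kidney replicate 3 and 2.82 without CV kidney replicate 1.

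The genes whose profile over the 18 libraries lay closest to that of il1b were found by the root-mean-square difference of log2 CPM centred on the mean of each tissue. The closest 5 of 22800 genes were si:dkey-97i18.5 (0.75), si:ch211-113d11.8 (0.78), MMP9 (0.78), itln3, an intelectin gene (0.80), and si:ch211-106j21.5 (0.87), where the median gene was at 1.59. Itln3 stood at 3.73, 18.6 and 4.81 CPM in GF, at 6.18, 80.4 and 127 CPM in chd8-/- and at 42.4, 7.92 and 3.40 CPM in CV kidney. It was high in the libraries where il1b was high, which follows from how it was picked. Among the members, cxcl8a ranked 9, saa 15, mmp13a 42 and nfkbiaa 124 by this measure. Tnfb ranked 2899 and irg1l 16139 (1.69), a distance above that of the median gene. The distance is not scaled, so it also grows where a gene has a wider or narrower range than il1b. Within each kidney group irg1l had the same library order as il1b, though not within the intestine groups. These distances share the libraries and their depth and carry no test.

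The wider pathway list of 172 genes, which does not hold the members, had genes called by edgeR in chd8-/- intestine and between CV tissues. In GF intestine edgeR called 0 of 141 tested genes, 12 with an unadjusted p under 0.05, and DUSP2, a MAP kinase phosphatase, had the smallest of the named p-values (−1.40, SE 0.29, edgeR adjusted p = 0.803, DESeq2 adjusted p = 0.0121). The other named genes were cxcr1 ENSDARG00000052088, a chemokine receptor (−1.65, edgeR adjusted p = 0.803), and IRAK3, an inhibitory kinase of the interleukin 1 receptor pathway (−1.41, 0.803). Without CV intestine replicate 3 the values were −1.06 for DUSP2, −1.61 for cxcr1 and −0.58 for IRAK3. Cxcr1 and IRAK3 were low and dropped out under a stricter filter (at least 1 CPM and 10 counts in 3 libraries). In GF kidney edgeR called 0 of 146, 24 with an unadjusted p under 0.05. Values below 0 were found for 97 of the 146, with a median of −0.21, and without CV kidney replicate 1 for 71 of 146, with a median of 0.02. ALOX5 ENSDARG00000043085, a 5-lipoxygenase of leukotriene synthesis, stood at 1.37, 0.805 and 1.27 CPM in GF, at 1.04, 1.11 and 1.24 CPM in chd8-/- and at 8.78, 4.69 and 3.27 CPM in CV kidney. All GF and all chd8-/- kidneys were below all CV kidneys, with log2 fold changes of −2.28 (SE 0.45, edgeR adjusted p = 0.434) in GF and −2.33 (SE 0.43, 0.398) in chd8-/-, against the same CV libraries. It passed in DESeq2 in GF kidney (−2.30, adjusted p = 0.000935) and in chd8-/- kidney (−2.35, adjusted p = 0.000365). Genes named in the kidney comparisons were picked among those without overlap, so their lack of overlap follows from how they were picked. Groups did not overlap for 24 of 146 pathway genes in GF kidney and 18 of 146 in chd8-/- kidney, against 15.3% and 15.8% of all genes. Another gene, ENSDARG00000057273, shares the symbol ALOX5 and was not among the genes named here. The other named genes of the kidney comparisons were ccl19b, a chemokine (−1.98 in GF, −1.38 in chd8-/-, edgeR adjusted p = 0.542 and 0.522), JUNB ENSDARG00000074378, an AP-1 subunit (−1.74 in GF, 0.542), and il12ba, an interleukin 12 subunit (−1.85 in chd8-/-, 0.645). The ccl19b values were −0.97 in GF and −0.39 in chd8-/- when CV kidney replicate 1 was left out. Il12ba dropped out under the stricter filter. In chd8-/- kidney edgeR called 0 of 146, 15 with an unadjusted p under 0.05.

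In chd8-/- intestine edgeR called 9 pathway genes higher and 11 lower of 142 tested (14.1%, against 9.17% of all genes), while the members were 0 of 8. Of 15 acute phase genes 4 were lower and 0 higher. The gene hamp, which encodes the iron hormone hepcidin, stood at 0.316, 0.880 and 0.816 CPM in chd8-/- and 13.8, 2.32 and 6.06 CPM in CV intestine (−3.47, SE 0.65, edgeR adjusted p = 0.0126). The pentraxin gene apcs had 25.8, 19 and 11.6 CPM in chd8-/- and 73.0, 49.7 and 36.7 CPM in CV (−1.51, SE 0.31, 0.0163). The C-reactive protein gene crp2 had 7.67, 5.82 and 5.78 CPM in chd8-/- and 18.9, 8.44 and 20.4 CPM in CV (−1.29, SE 0.32, 0.0339). The liver markers, 7 genes whose products include several acute phase proteins, summed to 6440 to 8580 CPM in chd8-/- and 7330 to 9110 CPM in CV intestine, and their part in these values was not tested.

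Higher in chd8-/- intestine were SOCS1, an inhibitor of cytokine receptor signalling, at 11.9 ± 0.87 CPM in chd8-/- and 4.56 ± 0.683 CPM in CV (SD, n = 3 each; log2 fold change 1.36, SE 0.19, edgeR adjusted p = 0.00164), and caspb, an inflammatory caspase, at 43.5, 45.1 and 32.5 CPM in chd8-/- and 18.8, 15.5 and 11.5 CPM in CV (1.39, SE 0.20, 0.00234). The chemokine gene ccl38.6 was higher too, at 3.98, 5.16 and 2.96 CPM in chd8-/- and 1.34, 1.08 and 1.96 CPM in CV (1.44, SE 0.32, 0.02). The receptor gene cxcr1 ENSDARG00000052088 had 0 counts in all 3 chd8-/- intestines, against 0.620, 0.673 and 0.729 CPM in CV intestine (edgeR adjusted p = 0.00524). Those CV levels were low, at 20 and 29 counts in replicates 2 and 3. Another gene, ENSDARG00000054975, shares the symbol and was not among the genes named here. ALOX5 ENSDARG00000043085 had 0.126, 0 and 0 CPM in chd8-/- and 0.482, 0.606 and 2.59 CPM in CV intestine (edgeR adjusted p = 0.0197). The neutrophil list summed to 123 to 139 CPM in chd8-/- and 96.1 to 149 CPM in CV intestine, with none of its 8 genes at 0 throughout. Calls of ccl38.6, ALOX5, hamp, apcs and crp2 were each lost when 1 or more single libraries were left out, while those of SOCS1, caspb and cxcr1 were kept.

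Between CV kidney and CV intestine edgeR called 26 pathway genes higher and 22 lower of 144 (33.3%, against 37.2% of all genes). Acute phase genes were lower in the kidney in 11 of 15 and higher in 0, led by leap2, an antimicrobial peptide gene (−4.67, SE 0.33, edgeR adjusted p = 8.38e-06), and apcs (−3.03, SE 0.58, 0.00522). The liver list summed to 1860 to 3370 CPM in CV kidney and 7330 to 9110 CPM in CV intestine. Higher in the kidney were csf1a, a macrophage growth factor (2.67, SE 0.48, 0.00202), CXCL12, a chemokine of blood-forming niches (2.80, SE 0.37, 0.000378), CSF3R, the granulocyte colony-stimulating factor receptor (2.56, SE 0.48, 0.00273), cxcl19 (2.98, SE 0.86, 0.0285) and ccl35.1 (2.41, SE 0.82, 0.0436). The gut chemokine gene ccl25a was lower (−6.23, SE 0.55, 6.71e-05). The ccl35.1 value was 0.78 (edgeR adjusted p = 0.385) without CV kidney replicate 1, and the cxcl19 and ccl35.1 calls were each lost when 1 or more single libraries were left out. In both interaction tests edgeR called 0 pathway genes, of 147 for GF and 151 for chd8-/-, with 8 and 22 at an unadjusted p under 0.05.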

How the data were processed

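The authors deposited 4 tables of raw read counts per gene. Reads were trimmed with Trim Galore 0.6.7, checked with FastQC 0.11.9, aligned with STAR 2.7.9a and counted with featureCounts (Subread 2.0.1) on GRCz11, as listed in the submitters' processing notes. The annotation release, strand setting and treatment of multi-mapped reads were not given in the sources used here. Counts of genes with near-identical sequence may therefore be shared between them, and which genes this concerns was not tested.

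Each comparison was fitted in R 4.3.3 with edgeR 4.0.16 (filterByExpr, TMM factors, quasi-likelihood F test) on its own 6 libraries, or 12 for an interaction, with Benjamini-Hochberg adjustment over all tested genes at 0.05. The standard error of a log2 fold change is its size divided by the square root of F. Levels are CPM with TMM factors over the 18 libraries, and log2 CPM uses a prior count of 2. DESeq2 1.42.0 and limma 3.58.1 (voom), other scalings and filters, a replicate block and the omission of libraries were tried as alternatives. The fits were tested on simulated counts for GF intestine, chd8-/- kidney and the chd8-/- tissue difference. The other steps were not tested in this way. CV intestine counts occur in both intestine tables with other numbers (differences of 0.0745% to 0.228% of counts), and CV kidney counts are identical in both kidney tables. Floors (3 counts) cover counting error only, while the standard errors and SDs include the spread between libraries.

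The members, the pathway and marker lists and these tests were chosen with earlier results of these data known. Beside the members, the text names in each comparison the called pathway genes, at most the 8 of largest absolute log2 fold change, or where none was called the 3 largest among those whose groups do not overlap, and the 5 genes closest to il1b. Fewer are named where the rule found fewer.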

Additional observations from a re-analysis of the deposited data

How the results depend on the processing

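The number of members called, without the SOCS3 pair, was 0 in all 7 comparisons with edgeR under TMM, RLE or library size scaling. That number was also 0 without a filter, with a stricter one and under the replicate block. It was also 0 in the 4 comparisons with CV of a tissue when all 3 groups of that tissue were in the fit. It was 1 (saa) in chd8-/- kidney, 2 (il1b and mmp9) between CV tissues and 1 (saa) for the tissue difference of the chd8-/- response with DESeq2, and 4 in chd8-/- kidney without CV kidney replicate 1 and chd8-/- kidney replicate 1. With single libraries left out it was 0 to 1 in chd8-/- intestine and 0 elsewhere. Over all genes, DESeq2 called 35 in GF intestine, 176 in GF kidney, 245 in chd8-/- kidney, 24 for the GF and 307 for the chd8-/- tissue difference, where edgeR called 0, 0, 0, 0 and 34. Called genes in GF intestine were 3 with library size scaling, without a filter, with a stricter filter and with all 3 groups. Without CV kidney replicate 1 and the library labelled GF kidney replicate 2, 944 genes were called in GF kidney, and without CV kidney replicate 1 and chd8-/- kidney replicate 1, 2178 in chd8-/- kidney. Leaving out single libraries gave 741 to 3069 calls in chd8-/- intestine and 0 to 139 in chd8-/- kidney. Library size scaling changed the split in chd8-/- intestine to 577 higher and 1555 lower, against 826 and 1077 with TMM, and between CV tissues to 2931 and 4520, against 3689 and 4181. The causes were not tested.

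Same-numbered libraries did not deviate together (correlations of −0.19 to 0.01 across genes). With 3 libraries a group this cannot exclude pairing, and the labels name none. For chd8-/- intestine and the chd8-/- tissue difference, the block used the CV intestine numbers of the chd8-/- table. Those differ from the germ-free table's numbers used elsewhere. The chd8-/- intestine correlations used the same numbers as the block. With a replicate block, calls fell to 1344 in chd8-/- intestine and to 7 for the chd8-/- tissue difference. Values that turned sign under the block were mmp13a in GF kidney (−0.08), irg1l in chd8-/- kidney (0.65) and between CV tissues (−1.50), il1b and irg1l for the GF tissue difference (−0.07 and 1.37), and irg1l and nfkbiaa for the chd8-/- tissue difference (2.34 and −0.02). SOCS3 ENSDARG00000025428 between CV tissues lost its call under the block (1.03, edgeR adjusted p = 0.0528) and with library size scaling (0.95, 0.0822).

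Mmp13a in GF kidney was −0.10 with limma-voom. Without CV kidney replicate 1 and the library labelled GF kidney replicate 2, irg1l was 0.76 and mmp13a −0.35 in GF kidney. Without CV kidney replicate 1 and chd8-/- kidney replicate 1, irg1l was 2.33 and the SOCS3 pair 0.37 and 0.94 in chd8-/- kidney.

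Leaving out single libraries turned the sign of 30 of 94 results. In intestine the ranges were −0.02 to 0.26 for mmp9 and −0.29 to 0.14 for SOCS3 ENSDARG00000026611 in GF, and −0.24 to 0.04 for mmp9 in chd8-/-. In GF kidney they were −2.06 to 0.98 for il1b, −0.67 to 0.31 for cxcl8a, −1.04 to 0.56 for saa, −4.91 to 0.81 for irg1l, −1.73 to 0.15 for mmp9, −0.66 to 0.49 for mmp13a and −0.83 to 0.04 for nfkbiaa. In chd8-/- kidney they were −3.94 to 1.76 for irg1l, −0.36 to 1.05 for nfkbiaa, and −1.11 to 0.20 and −0.68 to 0.64 for the SOCS3 pair. Between CV tissues they were −0.28 to 1.74 for tnfb, −0.74 to 0.05 for cxcl8a, −0.37 to 0.93 for saa and −4.04 to 3.45 for irg1l. For the GF tissue difference they were −1.13 to 1.95 for il1b, −0.56 to 1.45 for tnfb, −0.39 to 0.62 for cxcl8a, −3.25 to 4.25 for irg1l, −1.86 to 0.04 for mmp9, −0.23 to 1.13 for mmp13a, −0.53 to 0.33 for nfkbiaa and −1.22 to 0.10 for SOCS3 ENSDARG00000026611. For the chd8-/- tissue difference they were −0.95 to 1.08 for tnfb, −2.72 to 4.77 for irg1l, −0.72 to 0.67 for nfkbiaa and −0.89 to 0.42 for SOCS3 ENSDARG00000026611. Tnfa, and saa in GF intestine, had too few counts for a test.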

Other observations

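Of the 9 pathway genes called higher in chd8-/- intestine, caspb and SOCS1 were picked for their kidney values after these were seen. The inflammatory caspase gene caspb had 11.2, 20.5 and 10.8 CPM in GF, 11.8, 28.5 and 41.2 CPM in chd8-/- and 32, 6.45 and 5.88 CPM in CV kidney. SOCS1, an inhibitor of cytokine receptor signalling, averaged 7.48 ± 5.41 CPM in GF, 21.6 ± 16.7 CPM in chd8-/- and 17.6 ± 10.6 CPM in CV kidney (SD, n = 3 each), and the 3 groups overlapped. The hepcidin gene hamp, called lower in chd8-/- intestine, had 3.87, 6.71 and 9.62 CPM in GF, 6.11, 22.2 and 38.0 CPM in chd8-/- and 24.3, 11.9 and 16.1 CPM in CV kidney. Caspb was high in the kidney libraries where il1b was high, while hamp in GF kidney was highest in replicate 3, where il1b was lowest. In caspb, SOCS1 and hamp chd8-/- replicate 3 was the highest kidney library and chd8-/- replicate 1 the lowest of its group.

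Acute phase genes lay mostly above 0 in chd8-/- kidney and mostly below 0 in chd8-/- intestine. Of 16 in the kidney, 13 had a log2 fold change above 0 (median 0.56) and 0 were called by edgeR, with 5 at an unadjusted p under 0.05. Without chd8-/- kidney replicate 3 these were 13 of 16 (median 0.53) and 2, and without CV kidney replicate 1 they were 15 of 16 (median 0.47) and 6. In intestine 14 of 15 had one below 0 (median −0.40) and 4 were called. For the difference between the tissues 15 of 16 were above 0 (median 1.01), 12 had an unadjusted p under 0.05 and 0 passed edgeR's adjustment over all genes. Over all genes the median was 0.04, and 2196 of 22203 had an unadjusted p under 0.05 in edgeR. The acute phase list held the most such genes of the pathway lists, the others holding 0 to 3, and was not singled out in advance. Genes of a list that vary together are not separate results. The 7 liver markers, which share genes with the acute phase list, summed to 5090, 3850 and 5170 CPM in chd8-/- kidney and 1860, 3370 and 3110 CPM in CV kidney, and their part in these values was not tested.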
